A study of Mus musculus with 30 samples.

Results

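The genes of MHC class II antigen presentation were followed in 3 muscles, namely gastrocnemius, diaphragm and heart, and in liver, comparing Mtm1-/y mice, a knock-out model of X-linked myotubular myopathy, with their WT littermates. The 7 genes, Cd74, H2-Aa, H2-Ab1, H2-Eb1, H2-DMa, H2-DMb1 and Ciita, were taken by symbol from the 36103 genes of the deposited count table, and all 7 passed the filter on low counts in each of the 4 tissues. All mice were untreated males of 5 weeks on a pure 129Pas background, and the Mtm1-/y mice lacked the intact X-linked Mtm1 gene, which encodes a phosphoinositide phosphatase, in every tissue. There were 4 WT and 4 Mtm1-/y libraries of gastrocnemius and of heart, 4 and 3 of diaphragm, and 3 and 4 of liver, 30 in all. Libraries of a group came from separate mice, and whether tissues of 1 mouse were used in several groups is not given in the sources used here.

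MHC class II molecules are pairs of an alpha and a beta chain that carry peptides from the endosomal pathway to the cell surface, where CD4 T cells read them. The chains are made with the invariant chain Cd74, which blocks the peptide groove until proteases trim it, and H2-DM then exchanges the remaining fragment for other peptides. Ciita, the class II transactivator, switches these genes on constitutively in dendritic cells, B cells and part of the macrophages, and interferon gamma can induce it in other cells, whereas healthy muscle fibres carry little class II.

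All members except Cd74 and Ciita lie in the MHC region of chromosome 17. In the mm10 build Ciita spans chr16:10480059-10528418 on the plus strand. H2-Aa spans chr17:34282744-34287823 on the minus strand, facing its partner H2-Ab1, chr17:34257689-34269419 on the plus strand. H2-Eb1 spans chr17:34305867-34316674, H2-DMa chr17:34119541-34139101 and H2-DMb1 chr17:34153072-34160230, all 3 on the plus strand. H2-DMa shares 360 of its 3448 exon bases with Brd2 and Ciita 329 of 9535 with Dexi, each on the opposite strand, so part of their counts could belong to the partner if reads were counted without strand. H2-DMb1 has a near-identical neighbour, H2-DMb2, between which reads can be split or lost.

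Class II promoters are known for an X box, bound by the Rfx complex, followed at a fixed distance by a Y box, bound by the NF-Y complex, and Ciita acts through both. A RefSeq promoter window, 250 bases before to 50 after the start in GRCm38.p6, was at hand for 4 of the 7 members, in 5 windows. The 3 printed here, of H2-Aa (chr17:34287774-34288073, minus strand), H2-Eb1 (chr17:34305617-34305916, plus strand) and H2-DMb1 (chr17:34152941-34153240, plus strand), show the arrangement as found in 3 members, with the X box letters and then the Y box letters in capitals, 5′ to 3′.
H2-Aa: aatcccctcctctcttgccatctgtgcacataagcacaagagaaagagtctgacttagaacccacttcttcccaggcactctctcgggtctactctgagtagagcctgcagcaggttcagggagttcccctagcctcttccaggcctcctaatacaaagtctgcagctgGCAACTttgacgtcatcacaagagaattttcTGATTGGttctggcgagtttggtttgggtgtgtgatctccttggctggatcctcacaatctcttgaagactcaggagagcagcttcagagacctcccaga
H2-Eb1: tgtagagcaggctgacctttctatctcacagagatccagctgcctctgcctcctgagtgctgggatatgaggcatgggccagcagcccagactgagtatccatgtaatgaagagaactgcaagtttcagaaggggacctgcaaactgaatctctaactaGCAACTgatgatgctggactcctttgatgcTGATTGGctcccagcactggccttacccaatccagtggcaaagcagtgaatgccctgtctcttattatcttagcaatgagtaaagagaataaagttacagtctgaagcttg
H2-DMb1: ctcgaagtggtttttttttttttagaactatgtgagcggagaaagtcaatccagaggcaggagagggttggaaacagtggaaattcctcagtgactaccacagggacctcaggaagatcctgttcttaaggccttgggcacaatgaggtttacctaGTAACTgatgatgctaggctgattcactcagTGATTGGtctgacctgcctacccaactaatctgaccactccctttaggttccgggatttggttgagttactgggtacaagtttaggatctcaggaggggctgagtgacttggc
The bases between the capitals number 25 in H2-Aa, 24 in H2-Eb1 and 25 in H2-DMb1. The letters searched, on both strands and chosen after the sequences were seen, were GNAACT for the X box, held by 42.8% of 32851 windows, and TGATTGG for the Y box, held by 7.82%; the motifs do not overlap. The first followed within 40 bases by the second, in 1 orientation, was held by 110 windows, 0.335%. Neither H2-DMa window held that pair, which says only that these letters are not in those windows.

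The libraries held 24873817 to 44289343 counts each. Mtm1 was lower in Mtm1-/y than in WT in each tissue with no overlap between groups, from 19.3 to 23.0 CPM (counts relative to the library size) on average in WT to 3.85 to 6.52 in Mtm1-/y; the edgeR adjusted p was 2.07e-05 in gastrocnemius, 0.0269 in diaphragm, 2.64e-05 in heart and 0.365 in liver. Summed over 9 hepatocyte markers, 3 of the 4 WT and 1 of the 3 Mtm1-/y diaphragm libraries held 23970 to 44990 CPM, against 475 to 2898 CPM in the other 3 and 179700 to 229100 CPM in liver. Replicate 2 of Mtm1-/y liver held 50.03 CPM of striated muscle markers, against 7.66 to 23.0 CPM in the other liver libraries, and 104 CPM of macrophage markers, against 264 to 367 CPM.

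In gastrocnemius all 7 members rose in Mtm1-/y mice, by 3.17-fold to 6.06-fold, and no Mtm1-/y library overlapped a WT library for any of them. A gene was called where its edgeR quasi-likelihood adjusted p was under 0.05 and its log2 fold change beyond 1 in either direction. Of the 15456 genes tested in this muscle, 4.84% were called higher and 1.79% lower, and 13.9% had every Mtm1-/y library above every WT library. The median log2 fold change was 2.46 over the members and 0.02 over all genes tested. Levels below are CPM after TMM scaling over all libraries, given as mean ± SD.

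Cd74, the invariant chain, encoded at chr18:60803848-60812652 (mm10, plus strand), measured 20.6, 14.9, 20.7 and 16.3 CPM in the 4 WT gastrocnemius libraries and 105, 103, 76.2 and 112 CPM in the 4 Mtm1-/y libraries, in replicate order. The lowest Mtm1-/y library stood well above the highest WT library. The means were 18.1 ± 2.97 CPM (n = 4) and 99.2 ± 15.8 CPM (n = 4), a log2 fold change of 2.46 with a standard error of 0.149 and a 95% interval of 2.13 to 2.79 (edgeR adjusted p = 3.14e-05).

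Of the classical chains, H2-Aa pairs with H2-Ab1 as the surface molecule I-A, and H2-Eb1 is the beta chain of I-E. Surface protein was not measured, so the RNA of H2-Eb1 does not show whether I-E was present in these mice. H2-Aa was at 10.1, 7.80, 12.3 and 8.44 CPM in WT and 64.0, 54.1, 39.7 and 56.6 CPM in gastrocnemius of Mtm1-/y mice, with a log2 fold change of 2.48 with a standard error of 0.177 (edgeR adjusted p = 4.38e-05). H2-Ab1 was at 7.16, 6.32, 7.88 and 6.76 CPM in WT and 48.1, 43.2, 28.3 and 45.2 CPM in Mtm1-/y, a log2 fold change of 2.56 with a standard error of 0.162 (edgeR adjusted p = 3.14e-05). H2-Eb1 was at 8.25, 7.44, 8.40 and 7.74 CPM in WT and 49.1, 40.1, 28.0 and 43.1 CPM in Mtm1-/y, a log2 fold change of 2.34 with a standard error of 0.156 (edgeR adjusted p = 3.72e-05). In each of the 3 chains the third Mtm1-/y replicate was the lowest of its group and still above every WT value.

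H2-DMa and H2-DMb1 encode the alpha and beta chains of the peptide exchange factor H2-DM. H2-DMa was at 2.327, 2.519, 2.498 and 2.520 CPM in WT and 7.95, 8.54, 5.88 and 8.63 CPM in Mtm1-/y gastrocnemius, with a log2 fold change of 1.66 (standard error 0.144, 95% interval 1.34 to 1.98, edgeR adjusted p = 0.000116). H2-DMb1 was at 0.877, 0.999, 0.941 and 0.7001 CPM in WT and 3.87, 4.99, 2.43 and 4.27 CPM in Mtm1-/y, with a log2 fold change of 2.15 (standard error 0.246, edgeR adjusted p = 0.000374). The H2-DMa estimate was the smallest of the 7, and the upper bound of its interval lay below the lower bounds of all except H2-DMb1; the differences between members were not tested.

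Ciita, the transactivator, had the largest estimate of the 7, although its 95% interval of 2.01 to 3.19 overlapped those of all except H2-DMa. It was at 0.484, 0.520, 0.681 and 0.315 CPM in WT, which is 9 to 21 counts a library, and at 3.30, 3.18, 2.16 and 3.49 CPM in Mtm1-/y, which is 72 to 127 counts. The log2 fold change was 2.60 with a standard error of 0.263 (edgeR adjusted p = 0.000226).

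**Figure D1:**
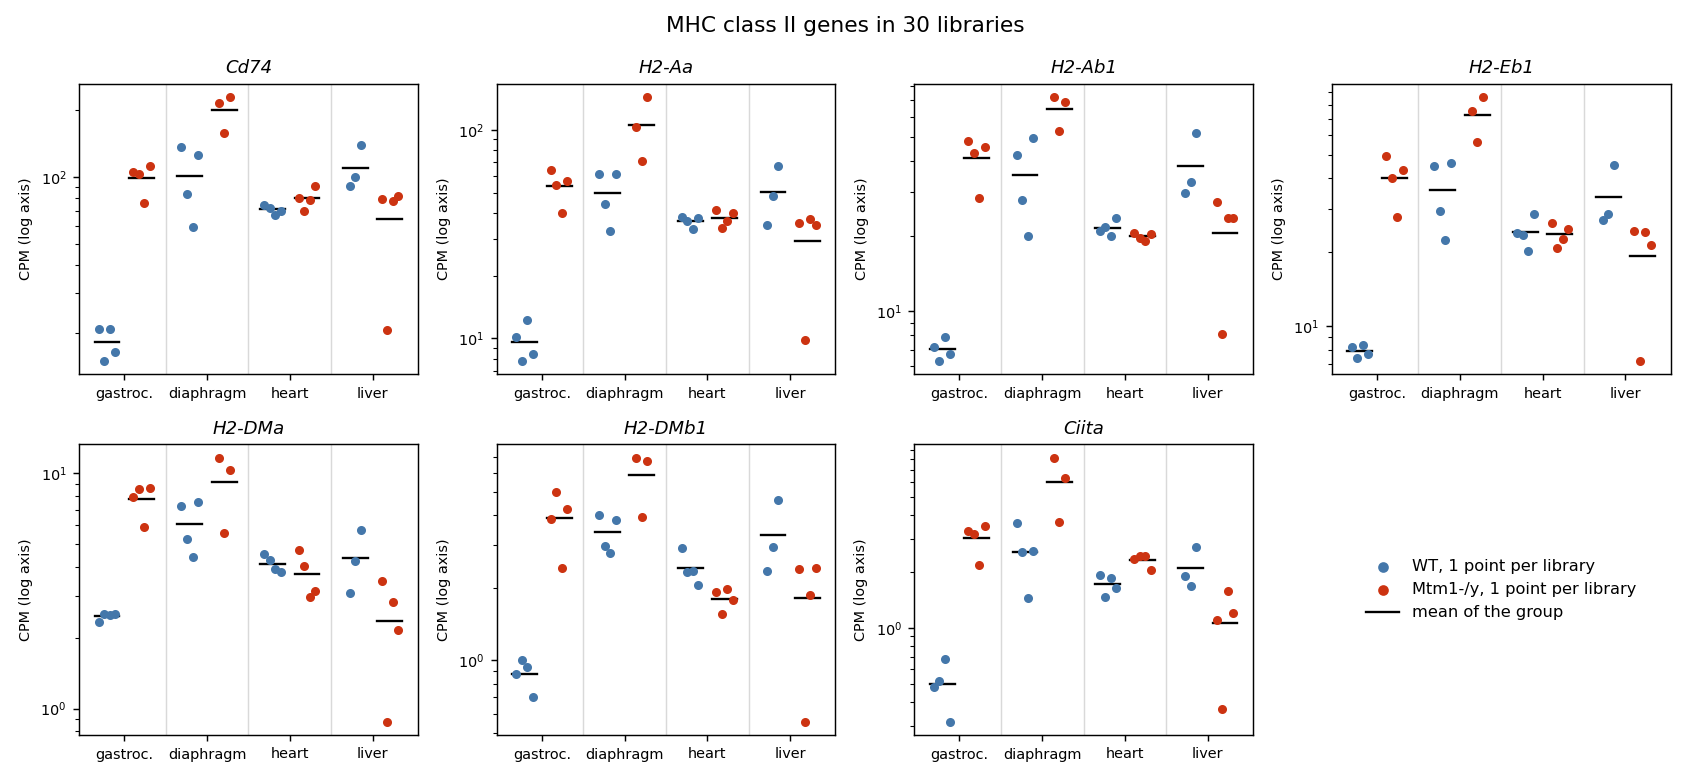
Level of each MHC class II gene in every library, in CPM on a log axis, by tissue and genotype; each point is 1 library and the black line is the group mean. In gastrocnemius the Mtm1-/y points lie above all WT points for the 7 genes, with Cd74 at 76.2 to 112 CPM against 14.9 to 20.7 CPM, while in heart the groups largely overlap.

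Per kilobase of exon, the order of levels in WT gastrocnemius ran from Cd74 at 10.8 CPM per kb through H2-Eb1 at 4.09, H2-Ab1 at 2.74 and H2-Aa at 2.54 to H2-DMa at 0.715, H2-DMb1 at 0.523 and Ciita at 0.0524 CPM per kb. In Mtm1-/y gastrocnemius the invariant chain was again first at 59.1 CPM per kb and Ciita last at 0.318 CPM per kb. The ratio of H2-DMa to H2-Ab1, per kb, was 0.236 to 0.297 in WT and 0.123 to 0.155 in Mtm1-/y gastrocnemius, without overlap. The part in this ratio of the exon bases that H2-DMa shares with Brd2 was not tested. By contrast, the ratio of H2-Aa to its partner H2-Ab1 was 0.835 to 1.05 in WT and 0.847 to 0.949 in Mtm1-/y gastrocnemius, within the WT range.

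Genes that mark leukocytes rose in the same gastrocnemius libraries. Of 14 macrophage markers 11 were called higher and none lower, with a median log2 fold change of 1.28, among them Mpeg1 (2.63, edgeR adjusted p = 3.14e-05), Cx3cr1 (2.57, edgeR adjusted p = 0.000509) and Cd68 (2.33, edgeR adjusted p = 0.000509). Of 8 pan-leukocyte markers 7 were called higher, with a median of 1.79, and Ptprc, which encodes CD45, rose by 1.96 (edgeR adjusted p = 0.00011). Of 6 monocyte markers 3 were tested and 2 rose, Ccr2 by 2.64 and Itgam by 1.5. Summed macrophage markers covered 68.2 to 120 CPM in WT and 194.5 to 232 CPM in Mtm1-/y, and summed leukocyte markers 19.0 to 24.8 and 51.7 to 56.7 CPM, both without overlap. The part of these cells in the members' rise was not tested, and in whole tissue more cells of a type cannot be told apart from more RNA per cell, nor fewer cells from less.

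Markers of dendritic cells, B cells and T cells were mostly not called by edgeR or too low to be tested. Of 14 dendritic cell markers 8 were tested and edgeR called 1, Itgax, which encodes CD11c and rose by 3.18 (edgeR adjusted p = 0.00041). On the adjusted p alone 2 were higher and none lower, 3 were at an unadjusted p under 0.05, and DESeq2 called 3. Cd209a had no count in WT gastrocnemius. The summed dendritic cell markers covered 43.6 to 53.05 CPM in WT and 48.4 to 53.9 CPM in Mtm1-/y, overlapping. Of 14 B cell markers 3 were tested and 1 was called, in the other direction: Ighm, the immunoglobulin mu heavy chain, fell by 3.48 on the log2 scale, from 74.8 ± 11.0 to 6.63 ± 1.57 CPM (edgeR adjusted p = 2.07e-05), and Blk and Cr2 had no count in Mtm1-/y gastrocnemius. The 13 B cell markers other than Ighm summed to 0.779 to 2.03 CPM in WT and 0.901 to 2.52 CPM in Mtm1-/y, overlapping. None of the 3 tested T cell markers was called by edgeR or DESeq2 or reached an unadjusted p under 0.05, and the 12 summed covered 14.8 to 28.3 CPM in WT and 12.5 to 23.1 CPM in Mtm1-/y.

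Relative to the summed macrophage markers, the summed members stood higher in Mtm1-/y gastrocnemius, at 0.853 to 1.41 against 0.444 to 0.594 in WT, without overlap. Relative to Ptprc, H2-Aa overlapped between the groups, at 8.22 to 11.2 in Mtm1-/y and 5.02 to 9.03 in WT.

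**Figure D2:**
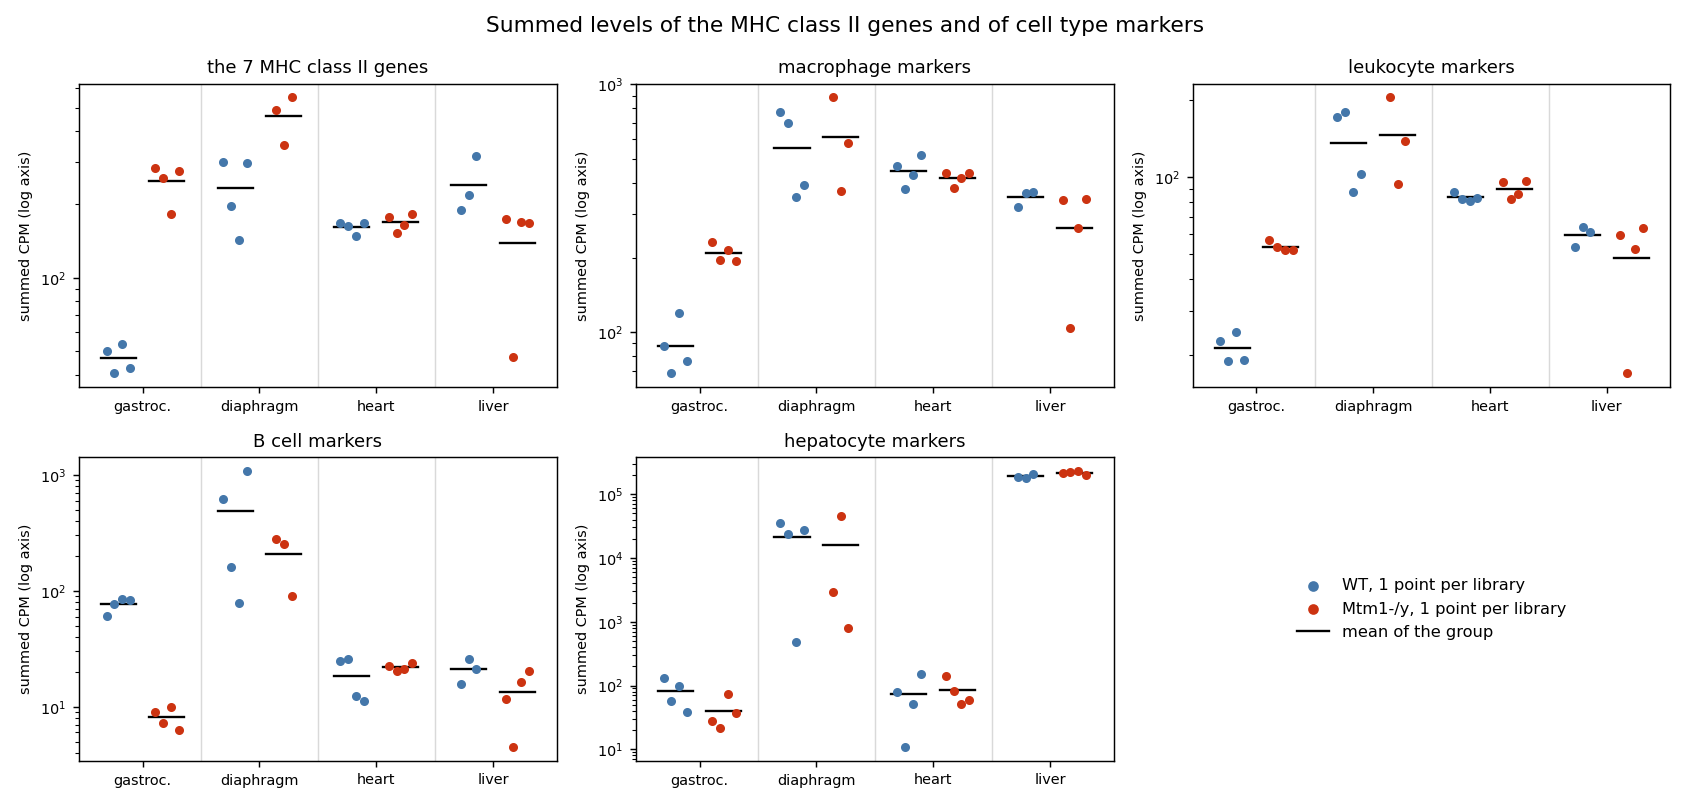
Summed CPM, on a log axis, of the 7 MHC class II genes and of macrophage, leukocyte, B cell and hepatocyte markers in each library, by tissue and genotype. In gastrocnemius the members, macrophage and leukocyte markers are higher in Mtm1-/y, the B cell sum, most of it Ighm, is lower, and 4 diaphragm libraries stand far above the other 3 in hepatocyte markers.

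**Figure D3:**
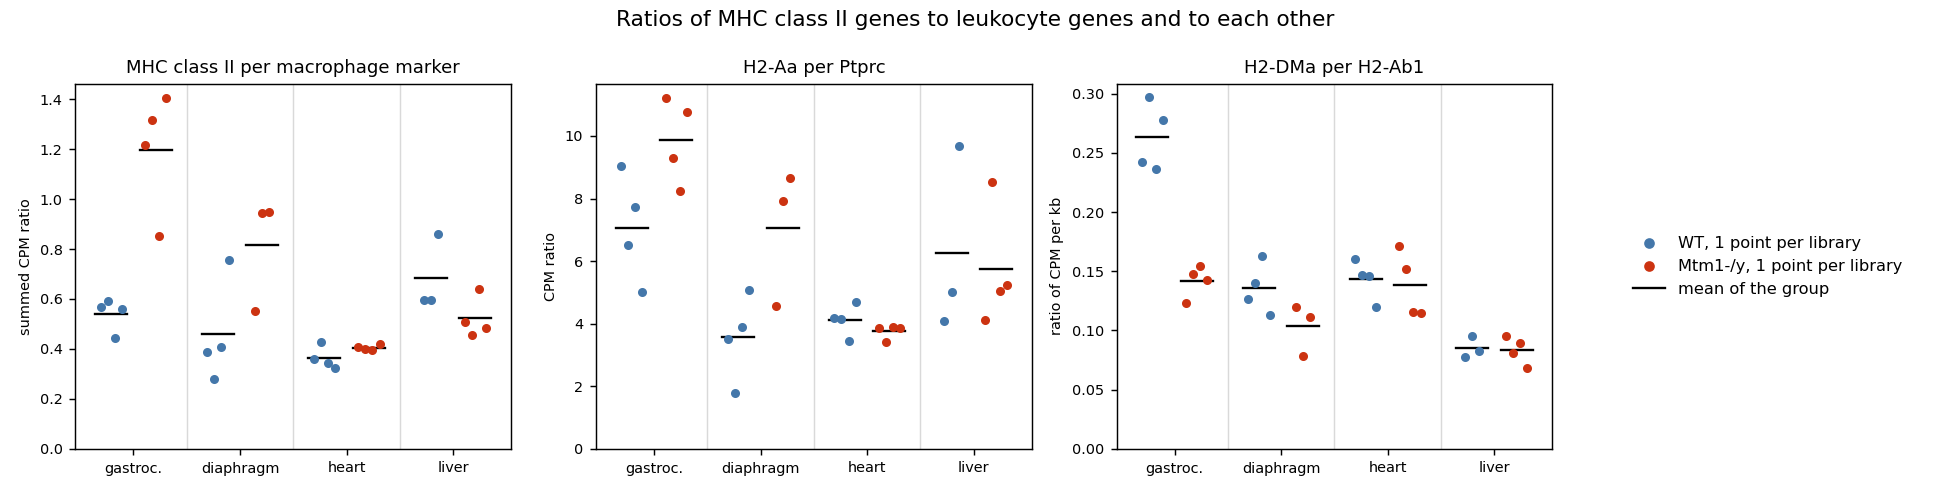
Ratios within each library, on axes that start at 0: summed CPM of the members over that of the macrophage markers, H2-Aa over Ptprc (CPM), and H2-DMa over H2-Ab1 (CPM per kb). In gastrocnemius the groups separate for the first and the last ratio and overlap for H2-Aa over Ptprc.

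The processing arm of the pathway moved in part. Of 9 genes of class II antigen processing 3 were called higher in Mtm1-/y gastrocnemius: Ctss, cathepsin S, which trims the invariant chain, from 1.96 to 9.86 CPM (log2 fold change 2.33, edgeR adjusted p = 4.22e-05), Lgmn, the asparaginyl protease legumain, by 1.02 (edgeR adjusted p = 0.000417), and the tetraspanin Cd63 by 1.01 (edgeR adjusted p = 7.15e-05). Of the 4 other class II chains 2 were tested and both rose, H2-DMb2 from 0.268 to 0.995 CPM (edgeR adjusted p = 0.00358) and H2-Ob, a chain of the H2-DM antagonist H2-O, from 0.303 to 0.655 CPM (edgeR adjusted p = 0.0391). Both were scarce, H2-DMb2 at 4 to 11 counts a library in WT and 25 to 42 in Mtm1-/y. H2-Ob had 5 to 13 and 15 to 31, and DESeq2 called 1 gene of this list. Of 5 genes of class II surface turnover 4 were tested and 2 rose, Cd83, which holds class II at the surface, by 1.04 and Il10ra, an interleukin 10 receptor chain, by 2.05. Of 6 genes of costimulation and class II ligands 5 were tested and 2 rose, Cd80 by 2.23 and Cd86 by 1.08. Of 4 genes of the Mif receptor complex, in which surface Cd74 takes part, 3 were tested and Cd44 rose by 1.12 (edgeR adjusted p = 0.0076).

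Genes known to act with Ciita or to induce it were not called higher. Of 10 genes of class II transactivation, the Rfx, NF-Y and coactivator genes, none was called by edgeR or DESeq2 in gastrocnemius, 5 were at an unadjusted p under 0.05 and 4 passed the adjusted p alone, all lower, such as the acetyltransferase gene Ep300 at −0.36 (edgeR adjusted p = 0.00658). Of 9 genes of interferon gamma signalling to Ciita 7 were tested, none was called higher, and Jak2, a kinase of the receptor, fell by 1.04 on the log2 scale, from 83.9 to 40.4 CPM (edgeR adjusted p = 0.000233). Ifng itself, named here after its values were seen, was too scarce to be tested, with no count in WT gastrocnemius and 2 counts in all over the 4 Mtm1-/y libraries. Of 15 interferon-induced genes 1 was called higher and 2 lower: the chemokine gene Cxcl10, at 1 to 3 counts a library in WT and 60 to 218 in Mtm1-/y (edgeR adjusted p = 8.2e-05), and the GTPase genes Gbp7 and Iigp1, which fell by 1.19 and 1.12 on the log2 scale. Among 12 genes of class I antigen presentation only Nlrc5, the class I transactivator, was called, at 1.04 (edgeR adjusted p = 0.0327). On the adjusted p alone, 4 of the 12 were higher, Nlrc5 included, and 1 was lower. At an unadjusted p under 0.05 stood 6, and the median log2 fold change of the list was 0.25.

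Over all lists other than the members, 144 genes were tested in gastrocnemius, with 43 called higher and 8 lower. Beside the leukocyte lists, 5 of 9 white adipocyte markers were called higher, Adipoq among them by 1.49 (edgeR adjusted p = 0.0118). On the adjusted p alone 6 of the 9 were higher and 1 was lower. The 9 summed covered 792.5 to 984 CPM in WT and 796.5 to 1012 CPM in Mtm1-/y, overlapping. Of 8 striated muscle markers Tnnt2, a troponin of heart and embryonic muscle, and the fast myosin gene Myh1 rose. Myh4, another fast myosin gene, fell by 1.00 on the log2 scale (edgeR adjusted p = 0.00118). Summed striated muscle markers covered 114800 to 136600 CPM in WT and 69760 to 81740 CPM in Mtm1-/y, so the share of counts left to other transcripts differed between the groups; its part in the members' change was not tested. None of 7 endothelial markers was called by edgeR or DESeq2, 5 were at an unadjusted p under 0.05, and Cdh5 was at −0.55 (edgeR adjusted p = 0.0126). Smaller lists gave 1 call each: Timd4 of the Kupffer cell markers fell by 1.02, and Arpp21 of the thymocyte and Tnfrsf11b of the lymphoid stroma markers rose by 1.18 and 2.17. Of 9 hepatocyte markers, at 21.9 to 132 CPM in sum, Cyp2e1 rose by 1.12 and Serpina1c and Ahsg fell by 2.26 and 1.96 on the log2 scale.

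**Figure D4:**
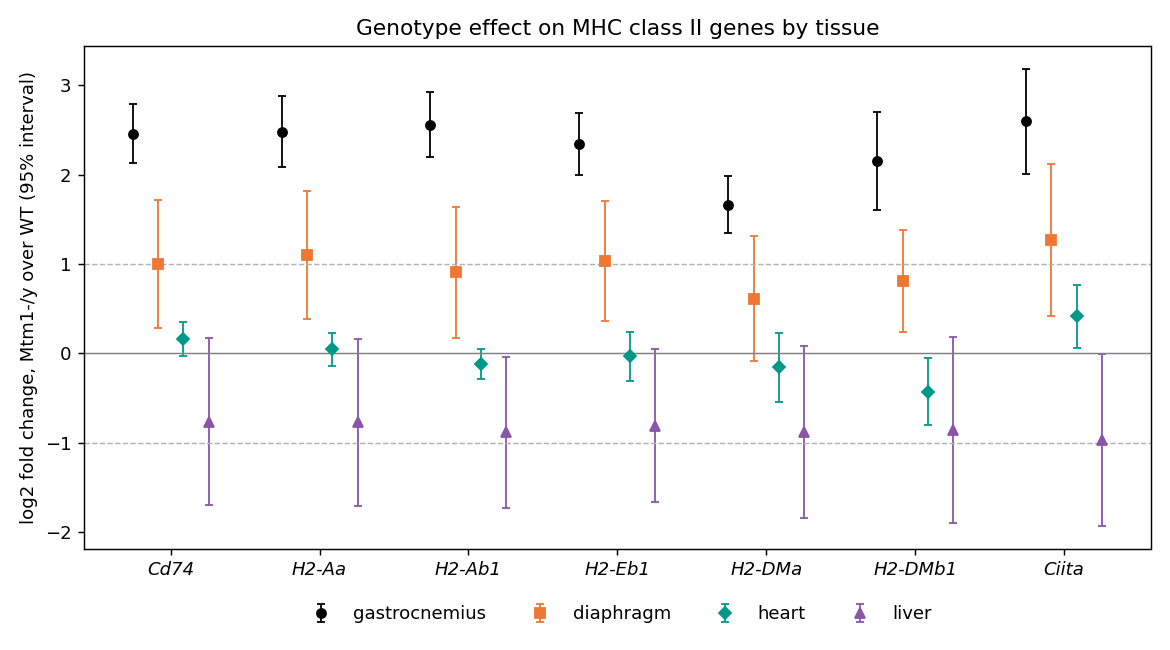
Log2 fold change of each MHC class II gene, Mtm1-/y over WT, in each tissue with its 95% interval; dashed lines mark a log2 fold change of 1 in either direction. The gastrocnemius estimates run from 1.66 to 2.60 with intervals above 1, those of heart from −0.43 to 0.42, and those of diaphragm and liver lie on opposite sides of 0 with wide intervals.

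In diaphragm, the respiratory muscle, all 7 estimates were above 0, from 0.61 to 1.27 on the log2 scale, but none was called by edgeR, as no gene was called higher (0% of 16796). At an unadjusted p under 0.05 stood 6 of the 7 members, against 10.8% of all genes, and 5 had every Mtm1-/y library above every WT library, against 4.41%. The edgeR adjusted p ran from 0.293 to 0.532. DESeq2 called 3 members, H2-Aa (log2 fold change 1.12, DESeq2 adjusted p = 0.0269), H2-Eb1 (1.06, 0.0299) and Ciita (1.29, 0.0367), where it called 1.3% of 18507 genes higher, and limma-voom called none. In a fit of all 30 libraries edgeR called 201 genes for this comparison, and Ciita alone of the members (1.25, edgeR adjusted p = 0.0408). Over all alternatives the members' adjusted p ran from 0.0269 to 0.917.

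Cd74 was at 136, 84.0, 59.5 and 125 CPM in WT diaphragm and at 213, 157 and 228 CPM in Mtm1-/y, replicates 1, 2 and 4. H2-Aa was at 61.3, 44.0, 32.7 and 61.3 CPM in WT and 103, 70.8 and 144 CPM in Mtm1-/y, a log2 fold change of 1.11 with a 95% interval of 0.39 to 1.82. Ciita was at 3.65, 2.54, 1.45 and 2.56 CPM in WT and 8.15, 3.68 and 6.31 CPM in Mtm1-/y, a log2 fold change of 1.27 with a 95% interval of 0.42 to 2.12. For these 3 the groups did not overlap, but the second Mtm1-/y replicate lay close to the highest WT library. H2-Ab1, at 20.01 to 49.6 CPM in WT and 52.7 to 72.2 CPM in Mtm1-/y, and H2-Eb1, at 22.5 to 46.4 and 56.6 to 86.0 CPM, did not overlap either. The H2-DM chains overlapped, H2-DMa at 4.38 to 7.51 and 5.57 to 11.6 CPM and H2-DMb1 at 2.79 to 4.02 and 3.93 to 6.96 CPM.

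The diaphragm libraries differed in hepatocyte markers, and the part of this in the members' values was not tested beyond what follows. The WT library poor in such markers, replicate 3, was the lowest WT library for all 7 members, whereas the Mtm1-/y library rich in them, replicate 2, was the lowest of its group for all 7. With the hepatocyte markers as a covariate the members' log2 fold changes were 0.61 to 1.35 (edgeR adjusted p 0.158 to 0.432, none called). Without the 4 libraries rich in them, 1 WT and 2 Mtm1-/y libraries were left and the log2 fold changes were 1.29 to 2.31. With 1 WT library left, no test result of that fit is given. Macrophage markers summed to 351 to 773 CPM in WT and 371 to 885.5 CPM in Mtm1-/y diaphragm, B cell markers including Ighm to 78.0 to 1076 and 91.0 to 277 CPM, and the members per macrophage marker to 0.281 to 0.757 and 0.554 to 0.948. Of the other listed genes 175 were tested in diaphragm and none was called by edgeR, 21 were at an unadjusted p under 0.05 and DESeq2 called 6.

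In heart the members showed no call by edgeR, DESeq2 or limma-voom, where edgeR called 1 gene of 15238, 0.00656%. The median log2 fold change of the members was −0.04, and the edgeR adjusted p ran from 0.546 to 0.910. An unadjusted p under 0.05 was given to 2 of the 7, against 8.88% of all genes. These were Ciita, at 1.92, 1.47, 1.84 and 1.63 CPM in WT and 2.32, 2.43, 2.42 and 2.03 CPM in Mtm1-/y (log2 change 0.42, 95% interval 0.06 to 0.77), and H2-DMb1, at 2.93, 2.34, 2.34 and 2.06 CPM in WT and 1.93, 1.55, 1.97 and 1.77 CPM in Mtm1-/y (−0.43, 95% interval −0.81 to −0.05). Thus the transactivator lay higher and the H2-DM beta chain lower, each without overlap between groups, as did 2.15% of all genes upward and 2.03% downward.

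The heart libraries were close to each other for the abundant members. Cd74 was at 75.0, 72.6, 67.5 and 70.2 CPM in WT and 80.6, 70.1, 79.0 and 91.1 CPM in Mtm1-/y heart, with a 95% interval of the log2 fold change of −0.04 to 0.36. H2-Aa was at 33.4 to 38.1 CPM in WT and 33.6 to 41.2 CPM in Mtm1-/y, with an interval of −0.14 to 0.23, and H2-Ab1 at 19.9 to 23.6 and 19.2 to 20.5 CPM, with an interval of −0.29 to 0.05. H2-Eb1, with an interval of −0.31 to 0.24, and H2-DMa, with −0.54 to 0.23, also overlapped between genotypes. For all 7 members the interval excluded a log2 fold change of 1 in either direction. Macrophage markers summed to 378 to 518 CPM in WT and 381 to 437 CPM in Mtm1-/y heart. Of the other listed genes 161 were tested and none was called by edgeR, with 32 at an unadjusted p under 0.05 and 7 called by DESeq2.

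In liver all 7 estimates were below 0, from −0.76 to −0.97 on the log2 scale, and no gene was called by edgeR (0% of 14305), nor any member by DESeq2 or limma-voom. The edgeR adjusted p was 0.969 for each member. An unadjusted p under 0.05 was given to H2-Ab1 and Ciita, 2 of the 7, against 4.24% of all genes, and 4 members, those 2 with Cd74 and H2-Eb1, had every Mtm1-/y library below every WT library, against 3.33%. Cd74 was at 91.0, 99.5 and 138 CPM in WT liver and at 79.3, 20.5, 77.4 and 81.5 CPM in Mtm1-/y liver. Ciita was at 1.88, 1.68 and 2.71 CPM in WT and at 1.11, 0.370, 1.57 and 1.21 CPM in Mtm1-/y liver. The second Mtm1-/y replicate, the one low in macrophage markers, was the lowest library for every member, and its summed members of 47.5 CPM compare with 167 to 173.5 CPM in the other Mtm1-/y and 190 to 316 CPM in the WT livers. Without it the log2 fold changes were −0.70 to −0.47 (edgeR adjusted p 0.924 to 0.943, none called). The members per macrophage marker were 0.597 to 0.861 in WT and 0.457 to 0.640 in Mtm1-/y liver. Of the other listed genes 147 were tested and none was called by edgeR, with 7 at an unadjusted p under 0.05 and 1 called by DESeq2.

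Whether the genotype effect differed between tissues was tested as an interaction in fits of 2 tissues; these tests share the gastrocnemius or the diaphragm libraries. All 7 members were called lower for heart minus gastrocnemius, where 5.84% of genes were, with differences in log2 fold change from −2.66 for H2-Ab1 (edgeR adjusted p = 3.04e-06) to −1.80 for H2-DMa (edgeR adjusted p = 0.000166). H2-Ab1 had the smallest p of the 16627 genes tested in that contrast. All 7 were also called lower for liver minus gastrocnemius, where 1.8% of genes were, from −3.54 for Ciita (edgeR adjusted p = 0.00201) to −2.51 for H2-DMa (edgeR adjusted p = 0.00636). Without the second Mtm1-/y liver replicate these were −3.27 to −2.25, with all 7 called.

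In the main fits the differences that involve diaphragm were not called. For diaphragm minus gastrocnemius they ran from −1.67 for H2-Ab1 to −1.06 for H2-DMa (edgeR adjusted p 0.0889 to 0.263), with all 7 at an unadjusted p under 0.05, against 12.8% of genes, and none called, against 0.148% called lower. For heart minus diaphragm they ran from −1.22 to −0.75 (edgeR adjusted p 0.184 to 0.464), again with all 7 at an unadjusted p under 0.05, against 10.6% of genes, and none called, as for all genes (0%). Leaving out the 4 diaphragm libraries rich in hepatocyte markers left 1 WT and 2 Mtm1-/y diaphragm libraries. The genotype effects of Cd74, H2-Aa, H2-Ab1 and H2-Eb1 in heart minus those in diaphragm were then −1.95 to −1.74, larger in size than in the main fit. Calls of that fit are left out here, as 1 WT diaphragm library gives no spread of its own. The members' diaphragm minus gastrocnemius differences were −0.86 to −0.28. Leaving out a single library changed the calls: without Mtm1-/y diaphragm replicate 2 the heart contrast called H2-Aa and H2-DMb1, and without WT diaphragm replicate 3 the gastrocnemius contrast called Cd74, H2-Ab1 and H2-Eb1. The share of all genes called in these refits is not given here.

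Among WT tissues gastrocnemius held the least of all 7 members on average, and heart came next. Of the 4 WT diaphragm libraries 3 were rich in hepatocyte markers, and without them the order of heart and diaphragm changed for some members, as given below. Cd74 averaged 18.1 CPM in WT gastrocnemius, 71.3 ± 3.23 CPM in heart (n = 4), 101 ± 35.8 CPM in diaphragm (n = 4) and 110 ± 25.1 CPM in liver (n = 3). Liver was the highest tissue for Cd74, H2-Aa and H2-Ab1, and diaphragm for H2-Eb1, H2-DMa, H2-DMb1 and Ciita, but no member was called between these neighbours. Ciita averaged 0.4999 ± 0.1502 CPM in gastrocnemius, 1.72 ± 0.207 in heart, 2.09 ± 0.547 in liver and 2.55 ± 0.897 CPM in diaphragm. H2-Aa averaged 9.65 ± 1.99, 36.4 ± 2.09, 49.8 ± 14.0 and 50.2 ± 16.3 CPM in gastrocnemius, heart, diaphragm and liver.

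Against WT gastrocnemius, WT diaphragm was called higher for 7 of 7 members, where 18.8% of genes were, with log2 differences of 1.28 for H2-DMa to 2.45 for Cd74. WT heart was called higher for 6 of 7, where 17.7% of genes were, the exception being H2-DMa at 0.70 (edgeR adjusted p = 0.00786). WT liver was called higher for 6 of 7, where 25.7% of genes were, again without H2-DMa, at 0.73 (edgeR adjusted p = 0.00693). In each of these 3 contrasts no library of gastrocnemius overlapped the other tissue for any member. The share of all genes without overlap was not taken for these contrasts, so that count cannot be weighed.

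Among the other tissues no member was called by edgeR in any pair, whereas 27% of genes were called between heart and diaphragm, 50% between liver and diaphragm and 52.8% between liver and heart. Between heart and diaphragm 6 members were at an unadjusted p under 0.05, against 57.5% of genes, and H2-Ab1, H2-Eb1 and H2-DMa passed the adjusted p alone, at −0.71, −0.58 and −0.57. Without the 3 WT diaphragm libraries rich in hepatocyte markers 5 of these 7 differences changed sign, to 0.08 to 0.24. Between liver and diaphragm H2-DMa was at an unadjusted p under 0.05, against 77.7% of genes, with a difference of −0.54 (edgeR adjusted p = 0.0333). Between liver and heart Cd74 and H2-Ab1 were, against 77.8% of genes, at 0.58 and 0.78 (edgeR adjusted p = 0.0407 and 0.013). The count of 0 held under every alternative run for these 3 contrasts, none of which was another tool.

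The members followed each other closely over the 30 libraries. With each tissue centred on its own mean, Pearson's r between the log2 CPM of 2 members ran from 0.902 for H2-DMa with Ciita to 0.992 for H2-Ab1 with H2-Eb1. These are descriptions over libraries that share the genotype contrast and tissue composition. By the same measure, Ctss, the protease that trims the invariant chain, had the pattern most like the members' mean of 18491 genes (r = 0.945), followed by the macrophage gene Mpeg1 (0.928), Scimp, which encodes an adaptor of class II signalling (0.920), the inhibitory receptor gene Lair1 (0.919) and Cd300c2 (0.900). With each tissue and genotype centred on its own mean Ctss was again first, at 0.874, and the other 4 stood at 0.736 to 0.792. Their ranks were then 18 for Mpeg1, 57 for Scimp, 14 for Lair1 and 65 for Cd300c2. In gastrocnemius Mpeg1 went from 1.496 to 9.18 CPM, Lair1 from 0.171 to 0.797 CPM and Cd300c2 from 0.200 to 0.875 CPM, all 3 called higher, while Scimp was too scarce to be tested. Like the members, Ctss showed no call in heart (−0.15, edgeR adjusted p = 0.643) and its heart minus gastrocnemius difference was −2.47 (edgeR adjusted p = 6.98e-06). These genes were picked for likeness over the same libraries, genotype contrast included, so their calls and adjusted p are no separate evidence.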

How the data were processed

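Stranded poly(A) RNA-seq libraries of 30 whole-tissue samples were made by the authors, whose pipeline ran cutadapt 1.10 for trimming, STAR 2.5.3a for alignment to the mm10 build, and HTSeq 0.6.1p1 in union mode for counts of uniquely aligned reads per gene; the strand setting of the counting is not given in the sources used here. The deposited values are raw counts, 24873817 to 44289343 per library. Genes were kept by filterByExpr (count minimum 10). edgeR 4.0.16 (R 4.3.3) fitted TMM-scaled quasi-likelihood models per tissue, per pair of tissues for interactions, and over the WT libraries for tissues, with Benjamini-Hochberg adjustment over all genes tested; the thresholds were the study's, an adjusted p of 0.05 and a log2 fold change of 1. Levels are CPM from TMM factors over all libraries, and CPM per kb divides by union exon length. Likeness is Pearson's r with the members' mean log2 CPM (prior count 2). Alternatives used DESeq2 1.42.0 and limma 3.58.1 voom. The 7 members, the 22 gene lists and the rule for named genes were chosen with earlier results of these data known. From each list the rule took genes of smallest p among those called in gastrocnemius. Where none was called, it took those of highest mean CPM. It added the 5 genes most like the members. Most named genes were thus picked by the same gastrocnemius tests that are reported for them. The fits were tested on simulated data.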

Additional observations from a re-analysis of the deposited data

Results flagged for a closer look

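Of 42 groups of 4 libraries tested for 1 library far from the rest, 3 stood out, and chance gives about 1 in 20. Replicate 2 of Mtm1-/y liver lay below the other 3 for Cd74, with 0.933 of the group's range between it and the next library, and for H2-Aa, with 0.908. Replicate 1 of WT gastrocnemius lay below the other 3 for H2-DMa, with 0.881 of a range of 2.33 to 2.52 CPM.

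The genotype effect differed between heart and gastrocnemius, by the interaction test, for all 7 members. The differences in log2 fold change were −2.28 for Cd74, −2.42 for H2-Aa, −2.66 for H2-Ab1, −2.36 for H2-Eb1, −1.80 for H2-DMa, −2.56 for H2-DMb1 and −2.17 for Ciita. It also differed between liver and gastrocnemius for all 7. There the differences were −3.19 for Cd74, −3.23 for H2-Aa, −3.41 for H2-Ab1, −3.12 for H2-Eb1, −2.51 for H2-DMa, −2.98 for H2-DMb1 and −3.54 for Ciita. Both sets share the gastrocnemius libraries.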

How the results depend on the processing

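The count of called members was the same in 250 of 256 repeats under other settings, and 1751 of 1792 values of single members kept their direction and call. In gastrocnemius all 7 were called in each of the 15 alternatives, with log2 fold changes of 1.62 to 2.79 over the leave-outs. In diaphragm, where edgeR called 0, DESeq2 called 3 and the fit of all 30 libraries 1, and the cause was not tested. For heart minus diaphragm, leaving out 1 library gave 0 to 2 calls. Without the 4 diaphragm libraries rich in hepatocyte markers, Cd74, H2-Aa, H2-Ab1 and H2-Eb1 stood at −1.95 to −1.74 in that contrast. For diaphragm minus gastrocnemius, leaving out 1 library gave 0 to 3. The alternatives on hepatocyte markers were chosen after seeing the data; the lone WT diaphragm library that remains is assumed to vary like the other groups. Some directions turned. In heart, H2-Aa ran from −0.004 to 0.10 and H2-Eb1 from −0.11 to 0.064 over the leave-outs, and limma-voom gave H2-Eb1 0.055. For WT liver minus diaphragm the leave-outs gave Cd74 −0.18 to 0.20, H2-Aa −0.30 to 0.17, H2-Ab1 −0.20 to 0.23 and H2-DMb1 −0.40 to 0.11; H2-Aa was 0.009 in the fit of all libraries and 0.035 with DESeq2's size factors. Without the WT diaphragm libraries rich in hepatocyte markers, that contrast gave H2-Aa 0.55, H2-Eb1 0.52, H2-DMb1 0.17 and Ciita 0.46. WT heart minus diaphragm then gave Cd74 0.24, H2-Aa 0.13, H2-Ab1 0.084, H2-Eb1 0.082 and Ciita 0.22, and WT diaphragm minus gastrocnemius lost the call of H2-DMa, at 0.84. For WT liver minus heart, H2-DMa was −0.015 with no filter on low counts and −0.21 to 0.23 over the leave-outs.

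Of 14 pairs of WT and Mtm1-/y libraries with the same number within a tissue, 4 deviated together with a correlation over 0.1, and the range was −0.58 to 0.40. Across tissues of 1 genotype, 9 of 42 pairs with the same number did so, with a range of −0.16 to 0.23. Pairs with different numbers were not compared, so these values cannot settle whether the numbers pair the libraries. With the number as a replicate block the gastrocnemius log2 fold changes were 1.65 to 2.59 with 7 called, and 0 of 98 member calls changed over the 14 comparisons.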
